A study of Homo sapiens with 36 samples.

Results

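The nuclear genes that encode subunits of mitochondrial respiratory chain complexes I to IV and of ATP synthase, complex V, were followed through 3 RNA-seq experiments on cisplatin-resistant testicular germ cell tumor (TGCT) cells. Members were the protein-coding genes whose NCBI symbol begins with NDUFA, NDUFB, NDUFC, NDUFS or NDUFV followed by a number, NDUFAB1, SDHA to SDHD, CYC1, and the UQCR, COX4 to COX8 and ATP5 symbols. RefSeq holds 86 such genes, and 80 of 16431 genes in the NT2/D1-A4 table, 79 of 17035 in the 2102EP-C1 table and 79 of 16459 in the 2102EP-C1 knockdown table were listed. They comprised 37 genes of complex I, 4 of complex II, 10 of complex III, 10 or 11 of complex IV and 18 of complex V. The 6 genes measured in no table were ATP5MGL, COX4I2, COX6A2, COX6B2, COX7B2 and COX8C, most of them isoforms known from muscle, lung or testis. COX7A1, the heart and muscle form of its subunit, was listed only for NT2/D1-A4, at 0.41 to 1.07 CPM (counted reads of a gene per M reads of scaled library size).

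Complexes I and II pass electrons from NADH and succinate to ubiquinone, complex III passes them to cytochrome c, and complex IV passes them to oxygen. Complexes I, III and IV pump protons, and ATP synthase uses the returning protons to make ATP. Complex II is encoded wholly in the nucleus, whereas the other complexes combine nuclear subunits with a few that are encoded in mitochondrial DNA (mtDNA) and transcribed inside the organelle, so that their assembly draws on both genomes.

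NT2/D1-A4 and 2102EP-C1 are cisplatin-resistant clones derived from the human embryonal carcinoma lines NT2/D1 and 2102EP. In each of these 2 lines, 1 experiment compared an untreated vehicle control (VC), 0.5 µM cisplatin for 6 h, 1 µM GSK-J4 for 3 days, and GSK-J4 followed by cisplatin. GSK-J4 inhibits the histone H3 lysine demethylases KDM6A and KDM6B. The remaining experiment compared 2102EP-C1 cells carrying the empty lentiviral vector pLKO.1 with cells carrying hairpins against KDM6A and KDM6B (sh6A+6B), each untreated or given 0.5 µM cisplatin for 6 h. By the authors' methods, RNA was harvested the day after cisplatin treatment and not at the end of the exposure. The design asks how loss of demethylase activity changes these cells and their response to cisplatin. There were 4 arms an experiment and 3 libraries an arm, 36 in all, described as biological triplicate. The labels do not say that these were separate cultures, so that p-values measure the spread between the libraries. All cells, controls included, came from cisplatin-resistant clones, and no parental line was among the samples. The authors report that GSK-J4 and the double knockdown sensitized such cells to cisplatin, so the arms were not equally resistant. The knockdown rests on 1 hairpin combination in 1 line.

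Depth was 26.8 to 49.5 M counted reads a library for NT2/D1-A4, 30.3 to 53.6 M for 2102EP-C1 and 79.4 to 100.9 M for the knockdown. KDM6A fell by 1.01 on the log2 scale with sh6A+6B (143.1, 144.4 and 141.5 CPM with pLKO.1 against 70.7, 68.1 and 73.6 CPM), and KDM6B fell by 1.01 (adjusted p = 2.1e-18 and 1.8e-14, limma). The embryonal carcinoma marker POU5F1 stood at 487.3 to 746.8 CPM in the 36 libraries. Of 16 markers of differentiated cells, 5 or 6 were measured in a table and the rest, among them PTPRC of blood cells, were not listed. Changes below are log2 fold changes with their standard error (SE), and a gene is said to have risen or fallen where the Benjamini-Hochberg adjusted p over all genes of the table was under 0.05 by limma with an intensity trend. In such bulk samples, fewer cells of a type and less RNA per cell cannot be told apart.

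Per length of transcript, the abundance of members spanned a wide range in untreated cells. UQCRH, the hinge protein of complex III, was the highest in all 3 experiments, with 753 CPM per kb in NT2/D1-A4, 743 in 2102EP-C1 and 662 in the pLKO.1 cells. ATP5F1B, the catalytic beta subunit of ATP synthase, followed with 465, 664 and 638 CPM per kb. In complex I the highest was NDUFS5 (410, 406 and 414 CPM per kb) and the lowest NDUFV3, an accessory subunit of the NADH-oxidizing arm (4.13, 2.49 and 2.07 CPM per kb). These levels rest on a single transcript length for each gene, 5725 bases for NDUFV3. Before division by length, NDUFV3 had a mean of 23.6 CPM in untreated NT2/D1-A4, above the 10.2 CPM of NDUFA3. In untreated pLKO.1 cells the means were 11.8 and 12.2 CPM. In complex IV the highest was COX7C (296, 294 and 272 CPM per kb). ATP5F1E, the epsilon subunit, had only 0.27, 0.26 and 0.34 CPM per kb, far below its partners in the enzyme. Its length was taken as 3610 bases, and its untreated means were 0.99, 0.94 and 1.24 CPM. Whether so low a count reflects expression or the way reads and lengths were assigned was not tested. Genes with near-identical copies are uncertain here: UQCRHL is almost the same in sequence as UQCRH, and how reads shared by such copies were assigned was not stated. By complex, the median level in NT2/D1-A4 was 62.0 CPM per kb for complex I, 39.6 for II, 51.6 for III, 187 for IV and 124 for V, and complexes IV and V had the highest medians in the other 2 experiments as well (161 and 121 in 2102EP-C1, 143 and 114 in pLKO.1 cells). These orders compare genes within a library and were not tested.

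The pretreatments alone moved the members differently in the 3 experiments. In NT2/D1-A4 given GSK-J4, 19 of 80 members rose and 18 fell, shares close to those of all genes tested, of which 24.5% rose and 23.8% fell. The median member changed by 0.037, beside 0.008 for all genes. In 2102EP-C1 given GSK-J4, 0 of 79 members rose and 48 fell, where 19.2% of all genes rose and 16.0% fell. The median member changed by -0.14, beside -0.002 for all genes, and 71 of the 79 estimates were negative. With sh6A+6B in 2102EP-C1 cells, 8 members rose and 30 fell, beside 25.6% and 27.2% of all genes, with a median of -0.042 beside -0.005. Most of these changes were small: a fold change over 1.3 was also reached by 3 members in NT2/D1-A4, by 1 in 2102EP-C1 and by none with sh6A+6B, where 13.8% and 6.48%, 7.79% and 3.12%, and 6.34% and 5.74% of all genes rose and fell past both limits. The direction of the NT2/D1-A4 set was not stable to processing: with a trend on transcript length and GC content removed, 15 members rose and 31 fell and the median was -0.036, and with library sizes not scaled by TMM 28 rose and 12 fell. Shares of all genes, here and below, are those of the main fit. Counts of members under other settings stand without such a share and cannot be set against those of the main fit. Most members are short, and other short genes moved as well. With sh6A+6B, the median from 500 to 750 bases was -0.05 for members and -0.05 for other genes. With GSK-J4 in 2102EP-C1 these medians were -0.14 and -0.07, and under 500 bases they were -0.18 and -0.15. In longer classes the other genes of 2102EP-C1 moved less. There the medians were -0.16 for members and -0.03 for other genes from 1000 to 1500 bases, and -0.11 and -0.02 from 1500 to 2500 bases.

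**Figure D1:**
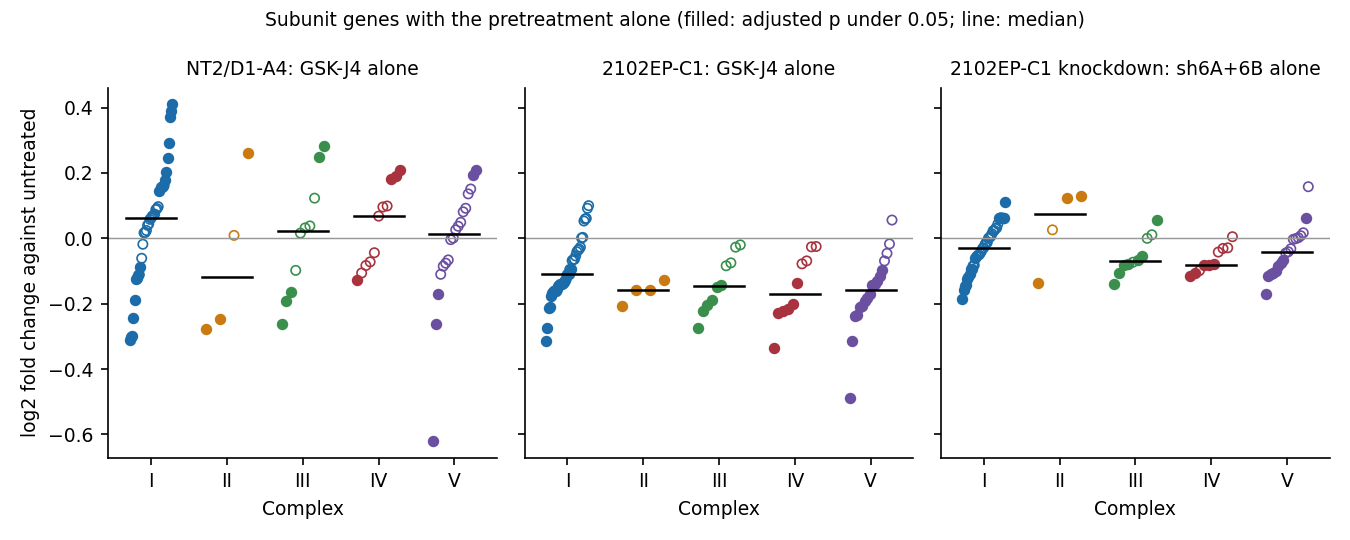
Log2 fold change of each measured member with GSK-J4 or sh6A+6B alone against untreated cells, by complex (x axis), in the 3 experiments. Filled points have an adjusted p under 0.05 (limma) and lines are medians: in NT2/D1-A4 points lie on both sides of 0 in every complex, in 2102EP-C1 with GSK-J4 no filled point lies above 0, and with sh6A+6B the scatter is narrower.

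Read by complex, the fall in 2102EP-C1 with GSK-J4 touched all 5 complexes. In complex I 18 of 37 members fell (median -0.11), in complex II 4 of 4 (median -0.16), in complex III 6 of 10 (median -0.15), in complex IV 6 of 10 (median -0.17) and in complex V 14 of 18 (median -0.16). In NT2/D1-A4 every complex was split: 11 rose and 9 fell in complex I, 1 and 2 in complex II, 2 and 3 in complex III, 3 and 1 in complex IV, and 2 and 3 in complex V. With sh6A+6B, 4 rose and 10 fell in complex I, 2 and 1 in complex II, 1 and 6 in complex III, 0 and 5 in complex IV, and 1 and 8 in complex V. Differences between complexes were not tested.

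A set of 8 members fell with all 3 pretreatments, and 0 members rose with all 3, where 4.75% of the 15050 genes measured in all 3 experiments fell and 4.86% rose with all 3. The 8 were ATP5MC1 and ATP5MC3 of the proton-carrying c-ring of ATP synthase, the complex I subunits NDUFA8, NDUFB10 and NDUFS3, the complex III subunits UQCRC2 and UQCRFS1, and the complex IV subunit COX6B1. The GSK-J4 and knockdown experiments on 2102EP-C1 had separate control libraries, so that these 3 comparisons share no sample. NDUFB10, of the proton-pumping membrane arm of complex I, read 64.5, 60.4 and 60.8 CPM in untreated NT2/D1-A4 and 51.1, 49.9 and 49.98 CPM with GSK-J4 (-0.30, SE 0.042, adjusted p = 9.7e-06, limma). In 2102EP-C1 it went from 103.2, 100.4 and 99.5 CPM to 92.5, 91.8 and 90.7 CPM (-0.14, SE 0.033, adjusted p = 0.0015), and with sh6A+6B from 91.1, 91.9 and 90.6 CPM to 79.6, 79.7 and 80.9 CPM (-0.19, SE 0.025, adjusted p = 8.7e-07). Treated and untreated libraries of NDUFB10 did not overlap in any experiment. UQCRFS1, the Rieske iron-sulfur protein that hands electrons to cytochrome c1, changed by -0.26 in NT2/D1-A4, -0.15 in 2102EP-C1 and -0.065 with sh6A+6B (adjusted p = 3.3e-05, 0.0025 and 0.02). UQCRC2, a core protein of complex III, changed by -0.16, -0.14 and -0.14, and NDUFA8 by -0.25, -0.14 and -0.16. NDUFS3, a subunit of the iron-sulfur arm of complex I, changed by -0.19, -0.11 and -0.12, and COX6B1, which faces the intermembrane space, by -0.13, -0.23 and -0.11.

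Promoters are shown for 7 of these 8 members, all but ATP5MC3, because the group moved together and the factors NRF1, ETS (GABPA) and YY1 are textbook regulators of respiratory genes. Each stretch is RefSeq sequence of GRCh38.p14, read 5′ to 3′ on the strand of the gene, from 120 bases before the start to 30 bases after it. NDUFS3 is chr11:47578954-47579103 (plus strand), NDUFA8 chr9:122159750-122159899 (minus), UQCRFS1 chr19:29213122-29213271 (minus), COX6B1 chr19:35648203-35648352 (plus), ATP5MC1 chr17:48892667-48892816 (plus), NDUFB10 chr16:1959418-1959567 (plus) and UQCRC2 chr16:21953241-21953390 (plus). Capitals mark matches on either strand to GCGCA and GCGC with any 1 base between them for NRF1, CCGGAAG for ETS and ATGGCGGC for YY1.
NDUFS3: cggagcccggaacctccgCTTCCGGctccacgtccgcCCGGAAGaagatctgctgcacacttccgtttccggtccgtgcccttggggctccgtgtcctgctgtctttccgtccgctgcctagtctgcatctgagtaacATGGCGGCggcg
NDUFA8: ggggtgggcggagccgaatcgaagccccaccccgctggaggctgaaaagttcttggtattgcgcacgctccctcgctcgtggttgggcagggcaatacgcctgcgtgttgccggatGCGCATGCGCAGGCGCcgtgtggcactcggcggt
UQCRFS1: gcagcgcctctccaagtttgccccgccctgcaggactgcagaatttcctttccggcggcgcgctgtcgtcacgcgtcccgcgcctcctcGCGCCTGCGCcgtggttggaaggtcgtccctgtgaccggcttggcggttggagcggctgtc
COX6B1: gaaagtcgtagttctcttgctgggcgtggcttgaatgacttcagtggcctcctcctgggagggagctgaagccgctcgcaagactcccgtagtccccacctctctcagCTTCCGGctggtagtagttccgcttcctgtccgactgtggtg
ATP5MC1: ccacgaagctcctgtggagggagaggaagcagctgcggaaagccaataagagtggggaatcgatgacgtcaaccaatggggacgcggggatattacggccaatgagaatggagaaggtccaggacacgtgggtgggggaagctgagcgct
NDUFB10: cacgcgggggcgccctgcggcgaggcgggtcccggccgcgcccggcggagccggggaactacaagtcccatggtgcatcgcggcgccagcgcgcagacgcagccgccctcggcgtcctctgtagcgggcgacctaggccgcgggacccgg
UQCRC2: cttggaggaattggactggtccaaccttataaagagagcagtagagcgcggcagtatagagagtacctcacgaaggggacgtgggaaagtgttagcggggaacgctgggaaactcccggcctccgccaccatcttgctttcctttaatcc
The NDUFS3 stretch held 2 ETS matches, beginning 102 and 83 bases before the start, and a YY1 match that begins at base 19 of the transcript. NDUFA8 held 2 overlapping NRF1 matches, beginning 4 bases before the start and at base 3 of the transcript, UQCRFS1 an NRF1 match beginning 31 bases before it, and COX6B1 an ETS match on the opposite strand beginning 12 bases before it. The ATP5MC1, NDUFB10 and UQCRC2 stretches held none of the 3, so that 4 of 7 had a match. Of 86 members, 69 had an entry of 300 bases in the promoter table. The NRF1 letters were in 17 of them (24.6%, against 11.7% of the 13404 promoters of measured genes and 6.98% of all 27305), the ETS letters in 21 (30.4%, against 19.6% and 12.2%) and the YY1 letters in 12 (17.4%, against 6.28% and 3.67%). A match is a description of the letters and not evidence of binding.

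The gene with the largest fall in both lines was ATP5MC1, one of 3 genes that encode the same mature c subunit of ATP synthase behind different import sequences. In NT2/D1-A4 it stood at 72.6, 71.4 and 73.7 CPM in control libraries and at 49.4, 45.0 and 47.2 CPM with GSK-J4 (-0.62, SE 0.061, adjusted p = 1.2e-07). In 2102EP-C1 the values were 47.4, 48.6 and 49.7 CPM in controls and 35.5, 38.4 and 30.4 CPM with GSK-J4 (-0.49, SE 0.058, adjusted p = 2.7e-07). Every GSK-J4 library lay below every control in both lines. With sh6A+6B the change was smaller, from 45.4, 45.4 and 46.0 CPM to 40.8, 43.96 and 42.9 CPM (-0.10, SE 0.028, adjusted p = 0.0041), again without overlap. ATP5MC3 changed by -0.17, -0.31 and -0.066 (adjusted p = 0.0019, 1.1e-07 and 0.0027). ATP5MC2 changed by -0.076 and 0.017 in NT2/D1-A4 and with sh6A+6B, neither past the threshold (adjusted p = 0.2 and 0.61), and by -0.17 in 2102EP-C1 with GSK-J4 (adjusted p = 0.0075).

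**Figure D2:**
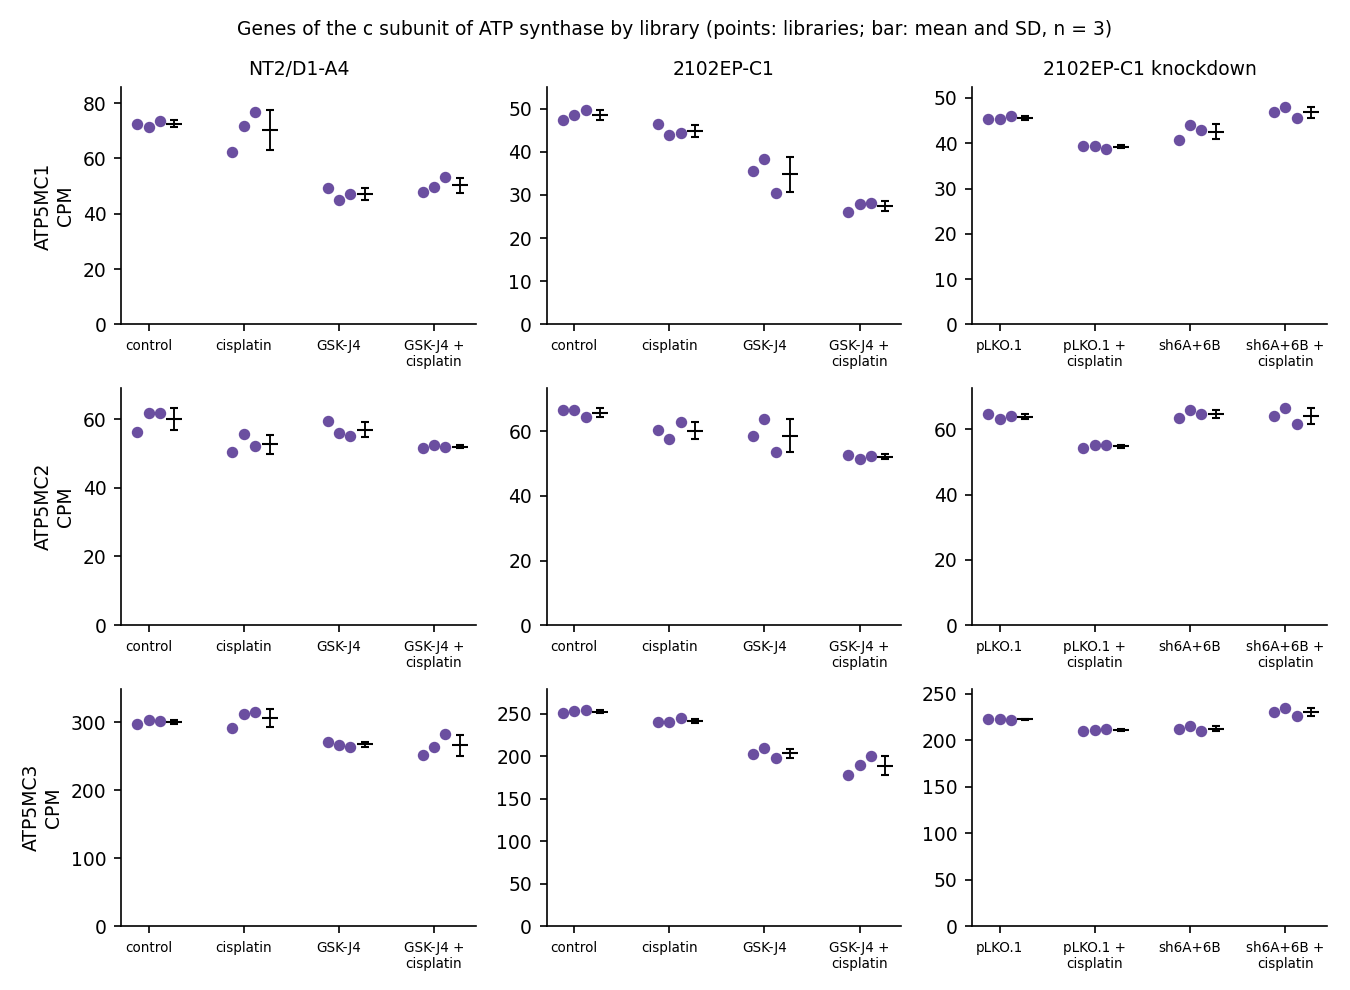
CPM of ATP5MC1, ATP5MC2 and ATP5MC3 (rows) in each library of the 4 arms (x axis) of each experiment (columns), with mean and SD, n = 3 libraries, on axes from 0. ATP5MC1 in GSK-J4 and GSK-J4 + cisplatin libraries lies between 45.0 and 53.1 CPM in NT2/D1-A4 and between 26.1 and 38.4 CPM in 2102EP-C1, below every library without GSK-J4.

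In complex I, the NT2/D1-A4 response to GSK-J4 ran in both directions. NDUFB2, a membrane-arm subunit, rose from 38.7, 39.2 and 39.1 CPM to 51.4, 52.1 and 52.1 CPM (0.41, SE 0.060, adjusted p = 1.6e-05). NDUFS4, a subunit needed for a stable NADH-oxidizing module, rose from 25.6, 24.9 and 26.8 CPM to 33.9, 33.8 and 33.8 CPM (0.39, SE 0.068, adjusted p = 0.0001), and NDUFA13, also called GRIM-19, rose by 0.37. Groups did not overlap for any of these 3 genes, and NDUFB2 and NDUFS4 were the 2 members that rose past a fold of 1.3. The largest fall was that of NDUFA5, from 101.0, 105.4 and 103.3 CPM to 87.1, 80.9 and 81.6 CPM (-0.31, SE 0.046, adjusted p = 1.8e-05). In 2102EP-C1 the values of NDUFS4 and NDUFA13 with GSK-J4 were 0.092 and 0.10 (adjusted p = 0.23 and 0.11), NDUFA5 was at -0.095 (adjusted p = 0.068), and NDUFB2 fell (-0.18, adjusted p = 0.039). The largest fall there was that of NDUFB6 (-0.31). With sh6A+6B, NDUFA5 had the largest rise of the complex (0.11, adjusted p = 0.02) and NDUFB10 the largest fall. Values of the 2 core subunits fixed by role were near 0: NDUFS1, which carries iron-sulfur clusters of the entry arm, had -0.089, -0.027 and 0.003 (adjusted p = 0.033, 0.54 and 0.92), and NDUFV1, the flavoprotein that oxidizes NADH, had 0.04, -0.033 and 0.063 (adjusted p = 0.5, 0.57 and 0.054). The value of NDUFS1 with sh6A+6B became -0.070 when the length and GC trend was removed.

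Complex II, succinate dehydrogenase, was split within NT2/D1-A4. SDHB, the iron-sulfur subunit, fell from 108.9, 108.7 and 112.2 CPM to 91.9, 90.9 and 89.5 CPM with GSK-J4 (-0.28, SE 0.042, adjusted p = 2.5e-05), and SDHD, a membrane anchor, fell by 0.25. SDHC, the other anchor, rose from 26.3, 27.9 and 27.6 CPM to 31.8, 32.6 and 33.8 CPM (0.26, SE 0.062, adjusted p = 0.0017), while SDHA, the flavoprotein that oxidizes succinate, had 0.009 (adjusted p = 0.91). In 2102EP-C1 all of SDHA (-0.13), SDHB (-0.16), SDHC (-0.16) and SDHD (-0.21) fell with GSK-J4. With sh6A+6B, SDHA (0.13) and SDHD (0.12) rose, SDHC fell (-0.14), and SDHB was at 0.026 (adjusted p = 0.37).

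In complex III, UQCRH and its near copy UQCRHL rose with GSK-J4 in NT2/D1-A4 (0.25 and 0.28), and both were close to 0 in 2102EP-C1 (-0.027 and -0.020, adjusted p = 0.49 and 0.8). CYC1, the cytochrome c1 protein, had 0.016 in NT2/D1-A4 (adjusted p = 0.81), and fell with GSK-J4 in 2102EP-C1 from 49.4, 49.0 and 50.1 CPM to 44.4, 45.2 and 39.4 CPM (-0.20, SE 0.046, adjusted p = 0.001). UQCRQ, the ubiquinone-binding protein, had the largest fall of the complex in 2102EP-C1 (-0.27, adjusted p = 5.6e-05). UQCRB rose with sh6A+6B (0.057, adjusted p = 0.022), a value that became -0.020 when the length and GC trend was removed.

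In complex IV, COX4I1 and COX5A, early-assembling nuclear subunits, were not called with GSK-J4 in either line: COX4I1 had -0.044 and -0.025 and COX5A 0.099 and -0.069. Both fell by 0.083 with sh6A+6B (adjusted p = 0.00071 and 0.00052). COX6C showed the largest rise of the complex in NT2/D1-A4 (0.21, adjusted p = 0.0037). COX7B, a small membrane subunit, had the largest fall in 2102EP-C1, from 261.8, 259.9 and 259.3 CPM to 204.2, 203.3 and 211.6 CPM with GSK-J4 (-0.34, SE 0.039, adjusted p = 2.1e-07), and all 3 GSK-J4 libraries lay below the controls. Among the paralogs measured, COX6A1 rose in NT2/D1-A4 (0.18) and fell with sh6A+6B (-0.078), COX7A2 rose in NT2/D1-A4 (0.19) and fell in 2102EP-C1 (-0.20), and COX8A fell in 2102EP-C1 (-0.22).

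In complex V, the alpha and beta subunits of the catalytic head, ATP5F1A and ATP5F1B, had -0.085 and -0.066 with GSK-J4 in NT2/D1-A4 (adjusted p = 0.12 and 0.092), fell by 0.23 and 0.14 in 2102EP-C1, and fell by 0.11 each with sh6A+6B. ATP5F1A went from 734.4, 728.2 and 722.0 CPM to 608.6, 625.7 and 623.6 CPM in 2102EP-C1 (SE 0.028, adjusted p = 3.1e-07), with no overlap. ATP5IF1, the inhibitor of ATP hydrolysis by the enzyme, was not called with any pretreatment alone (0.092, 0.056 and -0.045, adjusted p = 0.16, 0.24 and 0.11). ATP5PD, of the peripheral stalk, had the largest rise of the complex in NT2/D1-A4 (0.21) and the largest fall with sh6A+6B (-0.17). ATP5MG rose with sh6A+6B (0.063), a value that became -0.004 with the length and GC trend removed.

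The 2 lines also moved apart for some members. In 13 of 79 members measured in both, every GSK-J4 library lay above every control in NT2/D1-A4 and below every control in 2102EP-C1, a pattern found in 1.77% of the 15663 genes measured in both. The reverse pattern was found in 0 members, against 2.44% of genes. The 13 were SDHC, NDUFA1, NDUFA11, NDUFB6, NDUFC1 and NDUFS6, UQCRQ, COX5A, COX6C and COX7A2, and ATP5ME, ATP5MG and ATP5MK. Called higher in NT2/D1-A4 and lower in 2102EP-C1 were 7 members, against 0.747% of genes. For NDUFA11, a membrane-arm subunit, the changes were 0.29 in NT2/D1-A4 and -0.14 in 2102EP-C1, and for SDHC they were 0.26 and -0.16. Other short genes moved apart in the same directions. From 500 to 750 bases their medians with GSK-J4 were 0.05 in NT2/D1-A4 and -0.07 in 2102EP-C1, beside 0.08 and -0.14 for members. The NT2/D1-A4 direction was also not stable to removal of the length and GC trend, as given above. The difference between the lines was not tested, because the 2 tables were normalized separately.

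Cisplatin alone was followed by few called changes in the untransduced lines. In NT2/D1-A4 1 of 80 members was called, ATP5MC2, which fell from 56.2, 61.7 and 61.9 CPM to 50.3, 55.6 and 52.0 CPM (-0.19, SE 0.048, adjusted p = 0.019), where 5.85% of all genes rose and 3.58% fell. It did not reach a fold of 1.3, as 2.05% of all genes did upward and 0.396% downward. The call was lost without control replicate 2 or 3 or cisplatin replicate 1 or 3. In 2102EP-C1 0 of 79 were called by limma, with 8 at an unadjusted p under 0.05, beside 3.06% and 1.02% of all genes (0.881% and 0.188% past a fold of 1.3). The median member was at -0.044 there, and 68 of 79 estimates were negative. In contrast, in pLKO.1 cells 59 of 79 members fell and 0 rose with cisplatin, where 17.9% of all genes rose and 18.2% fell. The median was -0.11, beside -0.004 for all genes, and 77 of 79 estimates were negative. Other short genes were lower as well. The median was -0.11 for members and -0.07 for other genes from 500 to 750 bases, and -0.09 and -0.08 from 1000 to 1500 bases. From 2500 to 4000 bases it was -0.10 and -0.02. The knockdown experiment had the deepest libraries, and the vector cells and the untransduced cells were not compared by a test.

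By complex, cisplatin lowered 25 of 37 members of complex I, 2 of 4 of II, 9 of 10 of III, 7 of 10 of IV and 16 of 18 of V in pLKO.1 cells. The largest falls were those of ATP5MC2, from 64.6, 63.1 and 64.1 CPM to 54.4, 55.3 and 55.1 CPM (-0.22, SE 0.026, adjusted p = 4.1e-07), and of ATP5MC1, from 45.4, 45.4 and 46.0 CPM to 39.4, 39.4 and 38.8 CPM (-0.22, SE 0.028, adjusted p = 1.4e-06). Untreated and cisplatin libraries did not overlap for either gene. CYC1 (-0.20), NDUFS3 (-0.18), SDHB (-0.13), ATP5F1B (-0.14) and the inhibitor ATP5IF1 (-0.11) also fell, whereas NDUFS1 (0.012), NDUFV1 (-0.024), SDHA (-0.021) and SDHD (-0.018) did not pass the threshold. Of the 79 changes 0 reached a fold of 1.3, which 2.53% of all genes passed upward and 0.462% downward.

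In cells with sh6A+6B the same cisplatin treatment was followed by higher levels. There 63 of 79 members rose and 1 fell, where 22.1% of all genes rose and 22.7% fell, with a median of 0.14 beside 0.002. Rises were counted in 27 of 37 members of complex I, 3 of 4 of II, 10 of 10 of III, 9 of 10 of IV and 14 of 18 of V. COX7B had the largest, from 267.9, 263.5 and 270.2 CPM to 344.5, 336.0 and 324.6 CPM (0.33, SE 0.021, adjusted p = 1.6e-11). NDUFA11 rose from 52.3, 56.7 and 54.6 CPM to 68.4, 69.9 and 64.8 CPM (0.31, adjusted p = 1.4e-08), and COX7A2 by 0.30. With the length and GC trend removed, 42 members rose and 10 fell, and the share of all genes under that setting is not given.

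**Figure D3:**
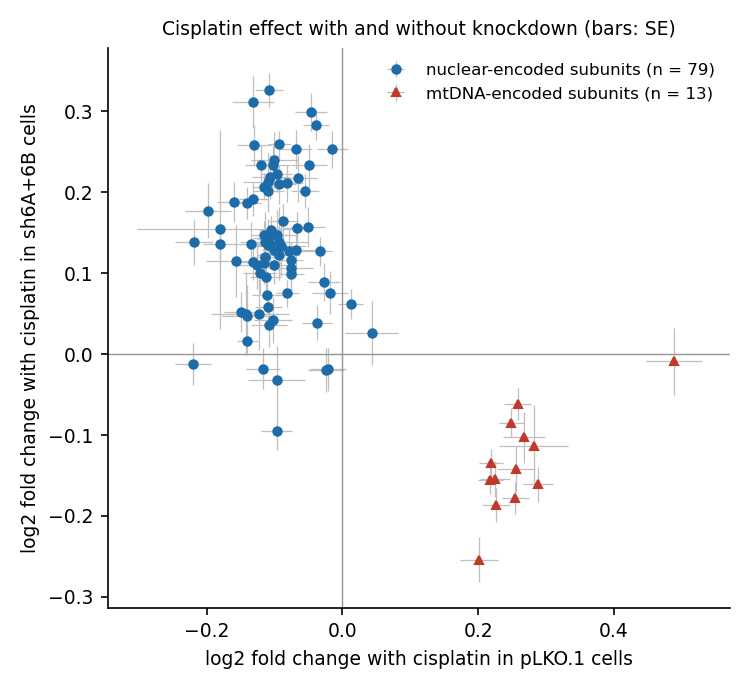
Log2 fold change with cisplatin in pLKO.1 cells (x axis) against that in sh6A+6B cells (y axis), with SE bars, for 79 nuclear-encoded members and 13 mtDNA-encoded subunits. Most members lie left of 0 on the x axis and above 0 on the y axis, around medians of -0.11 and 0.14, and the mtDNA-encoded genes lie on the opposite side of both axes.

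The interaction, which is the cisplatin effect in sh6A+6B cells minus that in pLKO.1 cells, was positive and passed the threshold for 70 of 79 members and was negative and past it for 0, where 17.2% of all genes were higher and 18.0% lower. The median interaction was 0.24, beside -0.004 for all genes. It was called in 32 of 37 members of complex I, 2 of 4 of II, 10 of 10 of III, 9 of 10 of IV and 17 of 18 of V. Among the 9 members not called were NDUFA5, NDUFS1, NDUFS7, NDUFV1, SDHA, SDHD, COX6C and ATP5F1E. Past a fold of 1.3 were NDUFA11 (0.44, SE 0.043, adjusted p = 1.9e-08), COX7B (0.43, SE 0.029, adjusted p = 7.0e-11) and NDUFA13 (0.39, SE 0.036, adjusted p = 7.0e-09), where 1.09% of all genes were higher and 2.67% lower by the same limits. NDUFA11 read 60.5, 57.2 and 58.6 CPM in untreated pLKO.1 cells, 52.4, 54.3 and 54.2 CPM after cisplatin, and 68.4, 69.9 and 64.8 CPM with sh6A+6B and cisplatin, the arm in which all 3 libraries were the highest. NDUFA13 read 52.3, 53.2 and 53.3 CPM, 47.6, 49.7 and 47.9 CPM, 48.8, 49.3 and 50.8 CPM, and 59.5, 60.5 and 58.0 CPM in untreated pLKO.1, pLKO.1 with cisplatin, untreated sh6A+6B and sh6A+6B with cisplatin, the last again the highest without overlap. In 55 of 79 members every cisplatin library lay below every untreated one in pLKO.1 and above every untreated one in sh6A+6B, a pattern found in 6.83% of all genes. Both effects were called in 49 members, against 5.04% of all genes.

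Against untreated pLKO.1 cells, sh6A+6B with cisplatin had 50 members higher and 3 lower (NDUFA8, NDUFB10 and ATP5F1B), beside 30.9% and 31.7% of all genes. NDUFB5 was the highest of those well expressed (0.32), and ATP5F1E was at 0.31. This comparison shares its controls with both earlier ones. With the length and GC trend removed, 29 were higher and 21 lower, again without a share of all genes under that setting.

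Transcript length moved with the interaction. The median transcript of the members had 756 bases, against 3215 for all genes with a length, and the median interaction of other genes ran from 0.13 under 500 bases and 0.16 between 500 and 1000 bases to -0.17 over 6000 bases. In each of 8 length classes the members' median lay above that of the other genes. It was 0.25 against 0.13 under 500 bases (11 members), 0.24 against 0.16 from 500 to 750 bases (28 members), 0.25 against 0.14 from 1000 to 1500 bases (10 members) and 0.22 against -0.17 over 6000 bases (3 members). With a trend on length and GC content removed, 53 members had a positive and 2 a negative interaction past the threshold, and the median interaction was 0.12 beside 0.003 for all genes. UQCRH, at 0.16, was then at -0.007.

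**Figure D4:**
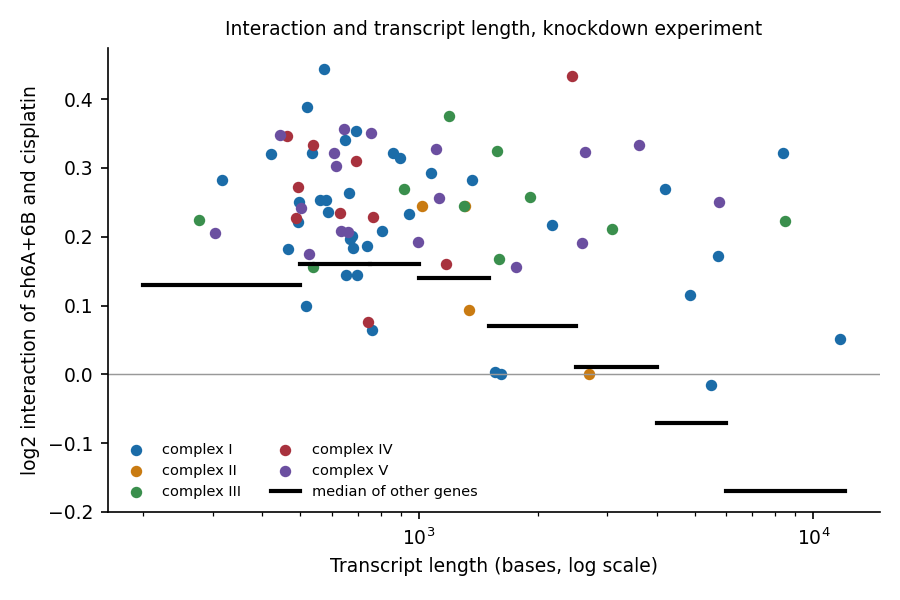
Log2 interaction of sh6A+6B and cisplatin for each member by transcript length in bases (log axis), coloured by complex, with black lines for the median of all other genes in each length class. Members scatter around 0.24 at most lengths while the median of other genes drops to -0.17 in the longest class.

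In the GSK-J4 experiments the interaction called 0 members in either line. In NT2/D1-A4, cisplatin after GSK-J4 changed 0 of 80 members by limma (2 at an unadjusted p under 0.05), beside 0.712% and 0.548% of all genes, and the interaction called 0 members, beside 0.0% and 0.0426% of all genes (2 at an unadjusted p under 0.05). In 2102EP-C1, cisplatin after GSK-J4 raised 4 members and lowered 10, beside 7.64% and 8.1% of all genes, with a median of -0.019. ATP5MC1 fell further, from 35.5, 38.4 and 30.4 CPM with GSK-J4 to 26.1, 27.9 and 28.1 CPM with both agents (-0.34, SE 0.058, adjusted p = 0.0003). ATP5F1D, the delta subunit of the rotor stalk, fell by 0.30 and CYC1 by 0.18, while COX6C rose by 0.14, NDUFB5 by 0.12 and the inhibitor ATP5IF1 by 0.12. The count moved with single libraries, with 32 members called without GSK-J4 replicate 3, 1 without GSK-J4 replicate 1, 3 without GSK-J4 replicate 2, and 5 and 9 without combination replicates 1 and 2. The interaction in 2102EP-C1 called 0 of 79 members (13 at an unadjusted p under 0.05), beside 0.734% and 1.64% of all genes, and 17 without GSK-J4 replicate 3. The GSK-J4 and knockdown experiments were separate tables, and their interactions were not compared by a test.

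The combined treatment against untreated controls gave the largest changes in 2102EP-C1. There 5 members were higher and 50 lower, beside 27.4% and 25.6% of all genes, and 7 were lower past a fold of 1.3, beside 9.77% of all genes. They were ATP5MC1, which reached -0.83 (SE 0.058, adjusted p = 6.2e-12), ATP5F1D (-0.54), ATP5MC3 (-0.42), COX8A (-0.42), COX6B1 (-0.40), NDUFA3 and NDUFB7. NDUFS4 (0.25) and NDUFB5 had the largest rises. In NT2/D1-A4, 22 were higher and 19 lower, beside 27.5% and 26.5% of all genes, with ATP5MC1 at -0.53, ATP5F1D at -0.31, NDUFB2 at 0.42 and NDUFA13 at 0.42. Past a fold of 1.3 were 2 higher and 1 lower, beside 15.9% and 9.56% of all genes. With the length and GC trend removed, 21 were higher and 30 lower. These comparisons share their control libraries with those of each agent alone.

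Summed over members, the knockdown experiment separated into 4 levels. The sum was 8700 to 8786 CPM in untreated pLKO.1 cells, 8139 to 8190 CPM after cisplatin, 8360 to 8458 CPM with sh6A+6B, and 9096 to 9396 CPM with sh6A+6B and cisplatin, so that no 2 arms overlapped. The 13 subunits encoded in mtDNA followed another order, with 9900 to 9995, 11406 to 12265, 12719 to 12808 and 11168 to 11667 CPM. All 13 rose with cisplatin in pLKO.1 cells (median 0.26) and with sh6A+6B (median 0.36), 11 fell with cisplatin in sh6A+6B cells (median -0.14), and all 13 had a negative interaction (median -0.40). The ratio of nuclear to mtDNA-encoded sums was 0.87 to 0.887 in untreated pLKO.1 cells, 0.656 to 0.665 with sh6A+6B, and between these in both cisplatin arms. Libraries came from an mRNA kit. As CPM are counted per M reads, the mtDNA-encoded sums of 9900 to 12808 CPM were a small share of each library. A further setting, chosen after the data were seen, counted library sizes without the mtDNA-encoded reads and without TMM factors. In it, 68 members had a positive interaction past the threshold, 52 fell with cisplatin in pLKO.1 cells and 63 rose in sh6A+6B cells. As that setting changed both at once, it does not isolate the mtDNA-encoded reads.

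**Figure D5:**
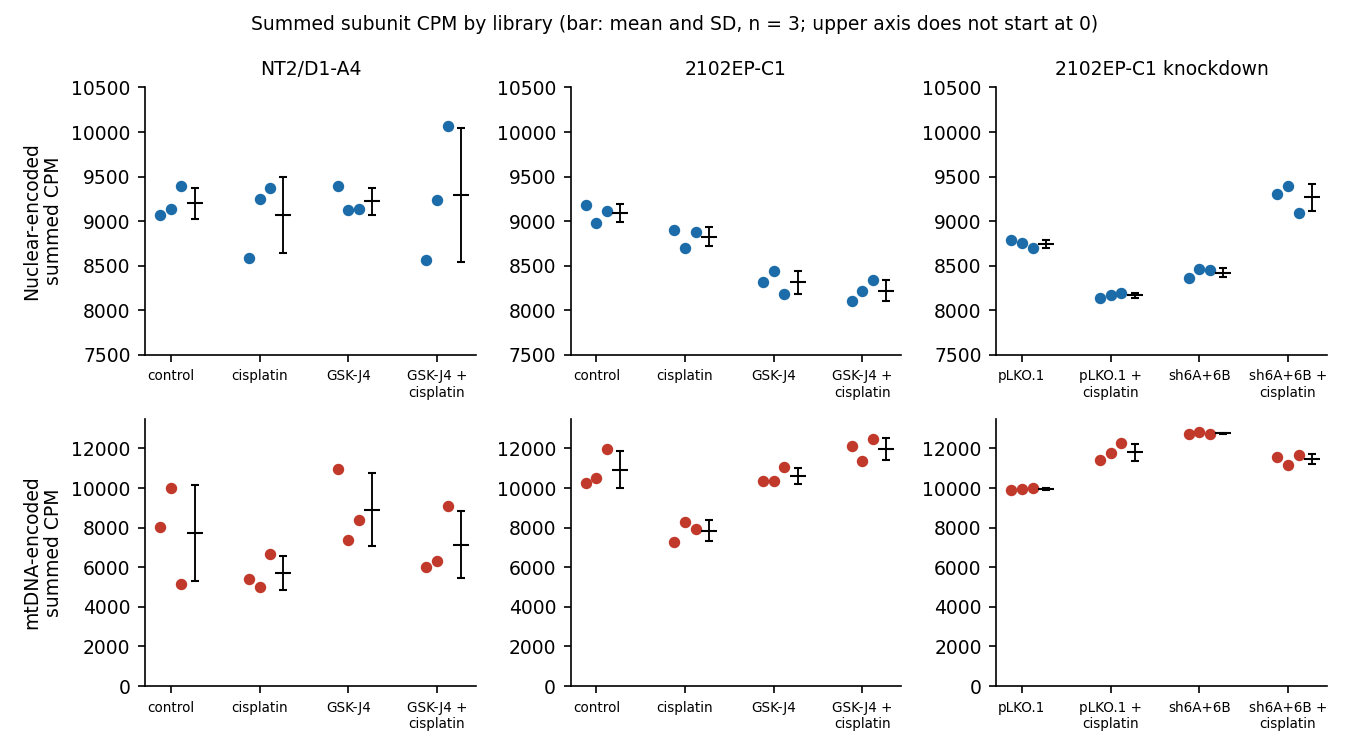
Summed CPM of the nuclear-encoded members (upper row, axis not from 0) and of the 13 mtDNA-encoded subunits (lower row, axis from 0) in each library of the 4 arms (x axis), with mean and SD, n = 3 libraries. In the knockdown experiment the members' sum is lowest after cisplatin in pLKO.1 cells (8139 to 8190 CPM) and highest after cisplatin in sh6A+6B cells (9096 to 9396 CPM).

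In 2102EP-C1 with GSK-J4 the members' sums were 8978 to 9185 CPM in controls, 8704 to 8902 CPM with cisplatin, 8184 to 8442 CPM with GSK-J4 and 8102 to 8339 CPM with both, so that libraries with GSK-J4 lay below all without it. The mtDNA-encoded sums were 10277 to 11988, 7270 to 8301, 10344 to 11076 and 11387 to 12463 CPM. All 13 fell with cisplatin alone (median -0.46), 12 had a positive interaction (median 0.66), and with GSK-J4 alone the complex I genes ND1, ND2 and ND3 rose (0.25, 0.35 and 0.27) and the complex IV genes COX1, COX2 and COX3 fell (-0.28, -0.42 and -0.55). In NT2/D1-A4 the members' sums overlapped in all 4 arms, and the mtDNA-encoded sums varied from 5173 to 10011 CPM within the controls alone. Their part in the members' changes was not tested.

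Other genes of the pathway gave further context, from lists chosen with earlier results known. Of the 51 assembly factors measured in the knockdown table, which help build the complexes without staying in them, 1 rose and 19 fell with cisplatin in pLKO.1 cells, 28 rose and 2 fell with it in sh6A+6B cells, and 27 had a positive and 1 a negative interaction (median 0.16). Among 17 enzymes of the tricarboxylic acid cycle 10 had a positive interaction and 0 a negative one (median 0.080), and among 17 electron carriers and supercomplex factors 7 and 0 (median 0.13). Of all genes, 17.9% rose and 18.2% fell with cisplatin in pLKO.1 cells, and 22.1% and 22.7% with it in sh6A+6B cells. The interaction was positive and called in 17.2% of all genes and negative and called in 18.0%. With GSK-J4, 10 assembly factors rose and 13 fell of 50 in NT2/D1-A4, near the 24.5% and 23.8% of all genes, and 2 rose and 13 fell in 2102EP-C1, beside 19.2% and 16.0%. In NT2/D1-A4 COA7 (-0.52) and UQCC3 (-0.74), which serve complexes IV and III, fell and CMC1 (0.49) rose. Citrate synthase, CS, fell by 0.38 while IDH2 (0.73) and SUCLG2 (0.51) rose, and 12 of the 17 cycle enzymes fell in 2102EP-C1. The ubiquinone synthesis genes COQ4 (0.55) and COQ6 (0.58) rose and COQ3 fell (-0.43) in NT2/D1-A4.

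Among 18 regulators of mitochondrial biogenesis, 0 rose and 13 fell with GSK-J4 in NT2/D1-A4, 2 rose and 9 fell in 2102EP-C1, and 2 rose and 8 fell with sh6A+6B. Of all genes, 24.5% rose and 23.8% fell with GSK-J4 in NT2/D1-A4, 19.2% and 16.0% in 2102EP-C1, and 25.6% and 27.2% with sh6A+6B. The marker counts that follow stand beside the same shares. PPARGC1B, a coactivator of nuclear respiratory factors, fell in all 3 (-0.61, -0.36 and -0.24), PPARGC1A rose in 2102EP-C1 with GSK-J4 (0.56), and the nuclear receptor gene ESRRG rose with sh6A+6B (0.48). Of 12 embryonal carcinoma markers, 2 rose and 8 fell with GSK-J4 in NT2/D1-A4, 1 and 8 in 2102EP-C1, and 5 and 6 with sh6A+6B. DNMT3B fell in all 3 (-0.79, -0.44 and -0.35), GDF3 fell in 2102EP-C1 (-0.45) and CRIPTO rose in NT2/D1-A4 (0.75). Of the measured markers of differentiated cells, 3 of 6 rose with GSK-J4 in NT2/D1-A4 and 4 of 6 in 2102EP-C1, among them AFP (1.42 and 1.75), GATA4 (0.73 and 0.79) and, in NT2/D1-A4, PAX6 (1.65). AFP reached no more than 0.672 CPM in any of these libraries. PAX6 was as low, with means of 0.10 CPM in NT2/D1-A4 controls and 0.48 CPM with GSK-J4. Other markers of the list did not go up in NT2/D1-A4: COL1A1 read 5.78 CPM in controls and 4.89 CPM with GSK-J4, and PECAM1 1.70 and 1.63 CPM. The part of these shifts in the members' changes was not tested.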

How the data were processed

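RNA-seq was performed on 36 libraries from a stranded mRNA kit in 3 experiments of 12. The authors used Trimmomatic for trimming, STAR for alignment to GRCh38.p14 and featureCounts for counts per NCBI gene, and then filtered low genes, applied TMM factors and tested with limma. Tool versions and the strand setting of the count are not given in the sources used here. The values deposited by the authors are on a log2 scale, CPM at library sizes multiplied by TMM factors, with 3 as the prior count, which was checked on the files. Under that formula 100% of values under 50 reads came within 0.05 of a whole read. The CPM printed here are these recovered reads per M reads of TMM-scaled library size. All 36 columns belonged to a sample.

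Gene IDs matched RefSeq symbols for 16414 of 16431 NT2/D1-A4 genes, 17020 of 17035 2102EP-C1 genes and 16443 of 16459 knockdown genes. Each experiment was fitted on the log2 values of its 12 libraries with a mean per arm and no block (limma 3.58.1 in R 4.3.3, intensity trend, two-sided moderated test). P-values were adjusted by Benjamini-Hochberg over all genes of the table. The interaction was the cisplatin effect after pretreatment minus that without it. The design also allowed for counts, but the files hold log2 values, so limma was run on them, with voom on the recovered reads as the one count-based alternative. Changes are on the log2 scale with the prior count, which understates changes of low genes. Python 3.11.15 was used for summaries. Promoter sequences were those of the RefSeq table, GRCh38.p14, and transcript lengths those of GENCODE release 44.

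The members and all gene lists were chosen with earlier results of these data known, so that no p was computed over a list. Genes were named by rule: the largest rise and fall per complex with each pretreatment and the 2 largest of each other comparison at 1 CPM or more, catalytic and paralogous genes fixed by role, members that moved alike in all 3, those past adjusted p 0.05 and fold 1.3 in an interaction, and at most 3 genes of each other list. The 13 members opposed between the lines, the members not called in an interaction, the members highest and lowest per length, the 6 mtDNA-encoded genes with GSK-J4 in 2102EP-C1, and the members past both limits with GSK-J4 or the combination were named after their values were seen. Values of 1 member are not reported here. On simulated counts for the pretreatment comparison, with 100 genes changed at each fold, 55%, 48% and 65% of genes changed 1.3-fold and 92%, 92% and 100% of those changed 2-fold were recovered in the 3 experiments, over 16431, 17035 and 16459 genes. The changed genes were drawn at random from all genes, low ones included, with the same dispersion for each. In each experiment 78 members were over a log2 value of 1 in every sample, so these shares do not describe the members. Alternatives were library sizes without TMM, a prior count of 0.5, only genes over a log2 value of 1 in every sample, voom on the recovered reads, only the compared arms, a replicate block, removal of a length and GC trend, and leaving out each library. Library sizes without mtDNA-encoded reads, also without TMM factors, were added after the data were seen.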

Additional observations from a re-analysis of the deposited data

Results flagged for a closer look

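The cisplatin response of the members differed between knockdown and vector cells by the interaction test in 70 of 79 members (limma, adjusted p under 0.05), all higher in sh6A+6B. Past a fold of 1.3 were NDUFA11 (log2 interaction 0.444, SE 0.043, adjusted p = 1.9e-08), NDUFA13 (0.388, SE 0.036, adjusted p = 7.0e-09) and COX7B (0.434, SE 0.029, adjusted p = 7.0e-11). The mtDNA-encoded subunits went the other way, with 13 of 13 lower by the same test, and in 2102EP-C1 cells with GSK-J4 12 of 13 were higher. For 13 members every GSK-J4 library lay above its controls in NT2/D1-A4 and below them in 2102EP-C1, and that difference between the lines was not tested. Other genes of 500 to 750 bases had medians of the same directions, 0.05 in NT2/D1-A4 and -0.07 in 2102EP-C1.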

How the results depend on the processing

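Counts of called members, with rises and falls added, stayed within 1.5 times in the GSK-J4, sh6A+6B and combination comparisons. The same held for the knockdown's cisplatin comparisons and interaction. Rises and falls counted apart moved more once the length and GC trend was removed. This was so for sh6A+6B with cisplatin against untreated pLKO.1 cells, cisplatin in sh6A+6B cells and GSK-J4 in NT2/D1-A4, as given above. The leading direction was kept, except in NT2/D1-A4 with GSK-J4 alone or with both agents. There the near-even split turned to more falls than rises with that trend removed, and without some single libraries. For GSK-J4 alone, rises and falls were 14 and 16 without control replicate 1 and 13 and 15 without control replicate 2. They were 13 and 14 without GSK-J4 replicate 1. With both agents they were 16 and 18 without control replicate 1 and 16 and 23 without combination replicate 3. Counts at or near 0 moved in relative terms. Cisplatin alone called 1 member in NT2/D1-A4, 2 with the trend removed (also 2 together with a replicate block), and 0 to 1 when single libraries were left out. Cisplatin after GSK-J4 in NT2/D1-A4 called 0, 2 with the trend removed, 4 with a block as well, and 0 to 2 without single libraries. Cisplatin alone in 2102EP-C1 called 0, 6 with the trend removed with or without a block, and 11 on the compared arms only. Cisplatin after GSK-J4 in 2102EP-C1 called 14, 4 on the compared arms only, and 1 to 32 without single libraries. The interaction in 2102EP-C1 called 0, 1 with the trend removed with or without a block, and 0 to 17 without single libraries. Without single libraries, the knockdown interaction called 67 to 72 members and GSK-J4 alone in 2102EP-C1 35 to 49. Removal of the trend, with or without the block, reversed UQCRH in the knockdown interaction (-0.007) and ATP5MG (-0.004), NDUFS1 (-0.070) and UQCRB (-0.020) with sh6A+6B alone. The cause was not tested.

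The labels do not say whether libraries of the same replicate number were paired. Over all genes, deviations of same-numbered libraries correlated from -0.09 to 0.08, -0.06 to 0.04 and -0.04 to 0.12 in the 3 experiments, and 0, 0 and 2 of 18 pairs were over 0.1. With 3 libraries an arm, such correlations cannot show that the samples were unpaired. With the replicate block alone the knockdown interaction called 71 members and GSK-J4 alone in 2102EP-C1 46. Over 177 results for named genes, 2823 values under an alternative kept direction and call, 101 lost the call, 50 gained it and 8 reversed. With 3 libraries an arm, many simulated 1.3-fold changes of genes drawn from all genes were not called, a share that need not hold for the members.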
